A study of Mus musculus with 4 samples.

Results

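Hippocampal RNA of wild-type (WT) mice was compared between 18 and 4 months of age. The comparison rests on 2 of the 4 arrays of the study, the WT array at 18 months and the WT array at 4 months, and was made across the genes that the scanner software called well above background on both. Of 37298 genes on the array, 28249 met that condition, 16889 of them under an official symbol. A further 357 genes were measured at 18 months alone and 1500 at 4 months alone, and 7192 on neither array. The other arrays hold hippocampus of mice that carry 1 knocked-out copy of Rp58 (hetero-KO; the current symbol is Zbtb18, a transcriptional repressor) at the same ages. They share no array with the WT pair, and their values are given beside the WT values.

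Each array held total RNA mixed from 3 samples of its group, of which 200 ng was labelled with Cy3. No group has a second array, so that the values below carry no replicate error and no test, and precision is limited by the single array on each side. The age label of the older WT group gives 18 months and its title 1.5 years, while its description gives 12 to 18 months. The older group is called 18 months here. Neither the sex nor the strain of the mice is in the labels. The level of a gene is its spot intensity divided by the array's 75th percentile over all non-control spots, and a difference is the log2 level at 18 months minus that at 4 months. A level of 1 is therefore the 75th percentile, and levels of different probes were not set against each other.

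The hippocampus is built from the granule cells of the dentate gyrus and the pyramidal cells of the fields CA1 to CA3, with interneurons, glia and vessels among them. In the ageing rodent brain, microglia, the resident macrophages, and astrocytes take on a reactive profile in which complement genes are prominent. Complement proteins mark cells and synapses for removal, and microglia carry receptors for them. Over the same span the birth of new granule cells in the dentate gyrus declines. The hippocampus lies against the thalamus, the choroid plexus, the meninges and, in front, the septum, so that marker genes of these neighbours are part of the description of any dissected sample.

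The 75th percentile of the signal was 1986 at 4 months and 1747 at 18 months, and 81.9% and 79.0% of the spots were well above background. Replicate spots of 1 probe within an array differed by a median SD of 0.034 (log2) at 4 months and 0.032 at 18 months over 299 probes with 5 spots or more, and the scanner software's own error of a difference had a median of 0.20. All 4 arrays lie on 1 slide and in 1 scan, with the 4-month arrays in row 1 and the 18-month arrays in row 2. Array row and age therefore cannot be told apart. Markers of the labelled tissue were present on both WT arrays: Prox1, the granule cell transcription factor, had a level of 2.24 and 2.25, the CA1 marker Wfs1 8.45 and 10.3, and the CA3 marker Grik4 4.90 and 6.46, at 4 and 18 months. Zbtb18 had a level of 17.4 and 18.7, a difference of 0.11.

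The makeup of the pools by sex differed between the ages. Xist, which coats and silences 1 X chromosome in female cells, was well above background at 4 months, with a level of 0.163, and not at 18 months, so that it was at least 21.6-fold higher at 4 months. A second probe, named XIST in the file and singled out after its values were seen, gave 5.59 at 4 months and 0.0255 at 18 months, the lowest difference of all genes measured (−7.78). The Y-linked Eif2s3y, Ddx3y, Kdm5d and Uty went the other way and were present at both ages. Eif2s3y, a translation factor gene, had 0.669 at 4 months and 1.29 at 18 months. Differences were 0.95 for Eif2s3y, 1.18 for Ddx3y, 1.33 for Kdm5d and 1.58 for Uty. Of the list of Y-linked genes and Xist, 5 members were measured on both WT arrays, these 4 and 1 that was lower (−0.96). RNA with Xist and RNA with Y-linked transcripts was thus present in the 4-month pool. The 18-month pool held Y-linked RNA. There the Xist probe was not well above background, while the probe named XIST was, at its low level of 0.0255. The part that sex has in any difference below was not tested. Without genes of the X and Y chromosomes, 201 of the 218 genes at least 2-fold higher and 225 of the 237 at least 2-fold lower were left.

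Most genes had similar levels at both ages. Of the 28249 genes, 218 were at least 2-fold higher at 18 months (0.772%) and 237 at least 2-fold lower (0.839%). At 1.5-fold, 713 were higher (2.52%) and 782 lower (2.77%). The median difference was 0.04, with 57.8% of genes higher and 42.2% lower by any amount. Counts of higher or lower members of a list in WT are to be read beside these shares. Large differences lay among dim genes: of 9801 genes with a level of at least 1 on both arrays, 6 were higher (0.0612%) and 8 lower (0.0816%) by a factor of 2 or more. The 8 were Ramp3, Zdhhc22, Prkcd, Rims3, Rora, Pdp1, Cit and Ptpn4. The 6 were C4b, Grn, Lyz2, the 5.8S ribosomal RNA entry Rs5-8s1, the pseudogene Pisd-ps3 and a transcript known by its identifier alone.

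The direction of small differences depended on the scale. When the arrays were scaled on the spiked-in E1A control RNA instead of the 75th percentile, every difference moved by −0.32, the median of all genes became −0.29, and 8.01% of genes were higher at 18 months. On that scale 110 genes passed 2-fold upwards and 589 downwards, so that the share of higher genes among them was 15.7% in place of 47.9%. Differences were read relative to this shift, and the spike-in value is printed beside most group medians. Where it is not, it is the median moved by −0.32. Bright genes also differed in bulk: the median difference was 0.14 in the brightest decile of the genes, against −0.01 to 0.07 in the others. Quantile normalization brought the brightest decile to 0.0076.

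**Figure D1:**
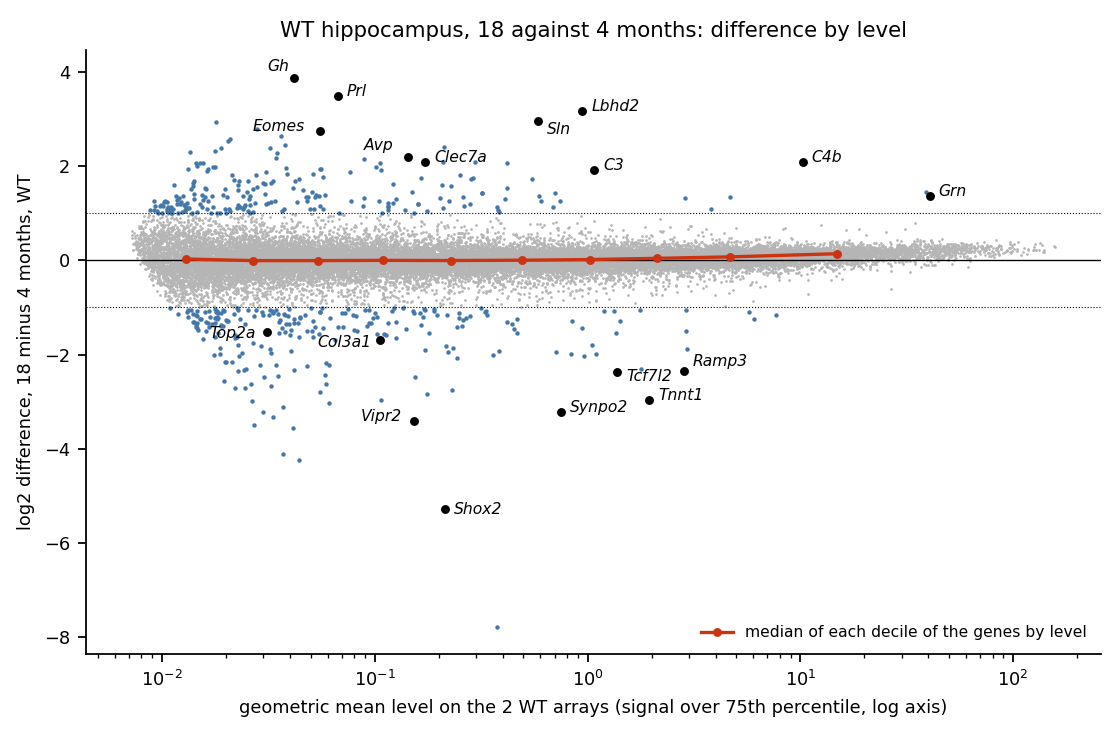
Log2 difference, 18 minus 4 months, of each gene measured on both WT arrays (vertical axis) against its geometric mean level on them (log axis); blue points are at least 2-fold apart and the red line joins the median of each decile of the genes by level. Shox2, Synpo2, Tnnt1 and Ramp3 lie far below the cloud and C4b, C3, Lbhd2 and Sln far above it, while the medians stay between −0.01 and 0.14.

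Complement genes were mostly higher at 18 months, with 3 past 2-fold. C4b, the complement component cleaved early in the classical pathway, had a level of 4.96 at 4 months and 21.2 at 18 months, 4.27-fold higher (probe at chr17:34865367-34865426, mm9, minus strand). Its second probe gave a difference of 2.05 against 2.10. C3, the component on which all complement pathways converge, went from 0.555 to 2.09, a difference of 1.91, and 0.93 by its second probe. The neighbouring C4a had 0.143 and 0.611, but it is a near-identical copy of C4b, and signal of the copies cannot be separated with certainty. In the hetero-KO pair C4b had 5.01 and 27.6 and C3 0.419 and 2.49, so that both 18-month arrays lay above both 4-month arrays for each gene.

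Of 25 complement genes, 24 were measured on both WT arrays. Of these 18 were higher (57.8% over all genes) and 6 lower (42.2%), 3 of them at least 2-fold higher (0.772% over all genes) and none at least 2-fold lower, and the median difference was 0.27 (−0.06 on the spike-in scale). The subunits of C1q, the recognition molecule of the classical pathway, had differences of 0.52 (C1qa), 0.65 (C1qb) and 0.55 (C1qc). Serping1, which inhibits C1, had a difference of −0.38. Clu, a secreted chaperone that also restrains the terminal pathway, had 77.3 and 93.7.

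Genes that microglia express in plaque-bearing and aged brain were higher almost throughout. Of 28 such genes measured, 27 were higher at 18 months (57.8% over all genes) and 1, Cd74, lower, with 6 at least 2-fold higher (0.772% over all genes). The median was 0.29 (−0.03 on the spike-in scale, 0.189 with a level of at least 0.1 on both arrays). Clec7a, a receptor for fungal glucans that marks reactive microglia, went from 0.0836 to 0.357 (2.09). Its second probe differed by 0.24 alone. Itgax, the integrin CD11c, went from 0.0285 to 0.109 (1.94, and 0.25 by its second probe), and Cst7, an inhibitor of lysosomal cathepsins, from 0.0272 to 0.0969 (1.83). The chemokines Ccl3 and Ccl4 had differences of 1.94 and 1.39, and the second probe of Ccl4 1.23. Apoe, the main lipid carrier of the brain, had 67.6 and 82.4, a difference of 0.29. All 6 genes past 2-fold, namely Clec7a, Itgax, Cst7, Ccl3, Ccl4 and Gpnmb, were dim, with 4-month levels between 0.0272 and 0.0836.

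Markers of resting microglia were higher as well, by less. Of 22 measured, 19 were higher (57.8% over all genes), 5 of them at least 1.5-fold (2.52%) and none at least 2-fold. The median was 0.32 (−0.0028 on the spike-in scale). P2ry12, the purinergic receptor that guides microglial processes, had 0.967 and 0.975. Trem2, the lipid-sensing receptor of microglia, had 2.37 and 3.92 (0.72), its adaptor Tyrobp 2.36 and 3.76 (0.67), and the protease Ctss 13.2 and 20.6 (0.65). The summed level of the 22 markers was 133 at 4 months and 165 at 18 months in WT, and 136 and 177 in the hetero-KO. In RNA of whole tissue, more cells of a type and more RNA per cell cannot be told apart. Lyz2, lysozyme of macrophages, went from 2.62 to 5.54 (1.08, second probe 0.76).

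Lysosome genes were uniform in direction. All 36 measured were higher (57.8% over all genes), with a median of 0.20 (−0.12 on the spike-in scale). Their median 4-month level was 4.19. The decile of all genes with a median 4-month level of 4.55 had a median difference of 0.07. Apart from Grn the lysosome genes ranged from 0.01 (Galns) to 0.65 (Ctss). Grn, progranulin, had a level of 25.2 and 64.9 (1.37) by its brightest probe, whereas its other 2 probes gave 0.07 and 0.26. The 2-fold difference of Grn therefore rests on 1 of 3 probes. Among 89 genes past 2-fold that have other measured probes, 69 had all of them in the same direction.

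Reactive astrocyte genes were split. Of 32 measured, 22 were higher (57.8% over all genes) and 10 lower (42.2%), with a median of 0.25 (−0.07 on the spike-in scale). At least 2-fold higher (0.772% over all genes) were 2, C4b and Cxcl10. Gfap, the intermediate filament of astrocytes, had 5.72 and 8.07 (0.50, second probe 0.52), and Vim 3.57 and 4.51 (0.34). Serpina3n, a secreted protease inhibitor, had 0.479 and 0.810 (0.76). Lower members included Fbln5 (−0.56), Serping1 and Cp (both −0.38). In the hetero-KO pair 29 of the 32 were higher (60% over all its genes) and 8 at least 2-fold higher (1.11% over all its genes). Among markers of resting astrocytes the differences lay between −0.26 and 0.31.

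Genes of antigen presentation by MHC class I were higher in WT, and those of class II were divided. All 15 class I genes measured had a difference above 0 (57.8% over all genes), with a median of 0.24 (−0.08 on the spike-in scale) and a range of 0.0010 to 0.57. B2m, the invariant light chain, had 7.59 and 9.15, and H2-K1 5.04 and 6.33. Members of this family are near-identical in sequence, and their signals may be shared. Of 9 class II genes 4 were higher and 5 lower, median −0.08. In the hetero-KO pair all 9 were higher (60% over all its genes), median 0.62. H2-Ab1, a class II chain, had 0.758 and 0.719 in WT.

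Border macrophages, which sit in the meninges and around vessels, are marked by genes that were lower in WT at 18 months. Of 14 measured, 12 were lower (42.2% over all genes) and 2 higher, median −0.21, with 2 at least 2-fold lower (0.839% over all genes). The median was −0.53 on the spike-in scale, −0.0791 with normexp background correction and −0.122 with a level of at least 0.1 on both arrays. Mrc1, the mannose receptor, had 0.242 and 0.111, and the lectin Clec10a 0.123 and 0.0544. The summed level of the list was 3.02 and 2.70 in WT, and 2.80 and 3.53 in the hetero-KO. There 12 of 15 were higher (60% over all hetero-KO genes), with a median of 0.26 and with Mrc1 at 0.123 and 0.148.

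Interferon response genes were mostly higher in WT. Of 37 measured, 30 were higher (57.8% over all genes) and 7 lower. Of the 30, 7 were higher by 1.5-fold or more (2.52% over all genes) and 1 by 2-fold or more (0.772%), with a list median of 0.20 (−0.13 on the spike-in scale). Ifi27l2a, a mitochondrial interferon-induced protein, had 0.481 at 4 months and 1.15 at 18 months (1.26), against 1.05 and 1.02 in the hetero-KO, so that the WT array at 4 months was the low one of the 4. Irf7, the transcription factor that amplifies the type I response, had 0.455 and 0.778 (0.78, second probe 0.55), against 0.644 and 0.700. Oas1a and Bst2 had differences of 0.73 and 0.68, against 0.38 and −0.02 in the hetero-KO. Ubd, a ubiquitin-like protein induced by interferon-gamma, was measured on the WT array at 18 months alone, at least 8.40-fold higher there.

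Interferon acts through a short promoter element, and the promoters of the list were searched for its core, GAAA followed by any 2 bases and GAAA again, on both strands, overlaps allowed, in the 250 bases before the start of the gene. The sequences are RefSeq's, in build GRCm38.p6. The motif was found in 12 of the 27 list genes that have an entry (44.4%) and in 936 of all 27025 genes with one (3.46%). The 3 measured genes that hold it and had the largest WT differences are shown, with the motif in capitals: Oas1a (chr5:120907526-120907775, minus strand), Bst2 (chr8:71537473-71537722, minus strand) and Ifit3 (chr19:34583279-34583528, plus strand).
Oas1a: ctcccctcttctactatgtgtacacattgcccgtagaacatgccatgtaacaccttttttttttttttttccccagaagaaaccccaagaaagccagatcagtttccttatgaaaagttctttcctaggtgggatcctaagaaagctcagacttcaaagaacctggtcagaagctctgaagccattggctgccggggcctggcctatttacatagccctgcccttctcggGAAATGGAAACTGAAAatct
Bst2: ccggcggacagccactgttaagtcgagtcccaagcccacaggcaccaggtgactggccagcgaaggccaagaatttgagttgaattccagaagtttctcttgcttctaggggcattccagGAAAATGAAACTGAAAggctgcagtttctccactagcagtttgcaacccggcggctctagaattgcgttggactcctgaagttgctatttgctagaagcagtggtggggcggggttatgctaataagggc
Ifit3: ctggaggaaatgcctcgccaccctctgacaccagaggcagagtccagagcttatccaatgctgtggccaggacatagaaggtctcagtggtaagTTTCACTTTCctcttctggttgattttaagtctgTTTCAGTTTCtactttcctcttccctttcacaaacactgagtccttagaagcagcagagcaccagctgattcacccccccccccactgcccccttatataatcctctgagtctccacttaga
Each of the 3 holds 2 matches. In Oas1a and Bst2 they overlap, and in Ifit3 they lie on the other strand. Of 11 measured genes that hold the motif, 7 were higher at 18 months (57.8% over all genes), with a median difference of 0.07. Of 15 without it, 14 were higher, with a median of 0.21. The part of the motif in these differences was not tested. Ifit3 had 0.602 and 0.809, while Rsad2 and Trim30a, which hold the motif as well, had −0.06 and −0.10.

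Among chemokines and their receptors, 6 of 31 measured were at least 2-fold higher (0.772% over all genes) and none at least 2-fold lower (0.839%), median 0.17 (−0.16 on the spike-in scale). Cxcl14, a bright member, had 10.4 and 12.6, whereas the 6 had levels under 1 on both WT arrays. Beside Ccl3 and Ccl4 these were Cxcl10 (0.0566 to 0.141), Cxcl5 (0.262 to 0.646), Ccl8 (0.0221 to 0.0525) and Ccl5 (0.0965 to 0.201). Cxcl13, which draws B cells, was measured at 18 months alone. Lymphocyte genes were higher in 15 of 17 (57.8% over all genes), median 0.24 (−0.08 on the spike-in scale, 0.0934 with a level of at least 0.1 on both arrays). Jchain, the joining chain of secreted antibodies, had 0.0495 and 0.0979. Neutrophil and monocyte genes had a median of −0.05. S100a9, a neutrophil protein, had 0.265 and 0.301 in WT, against a difference of 3.38 in the hetero-KO pair.

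**Figure D2:**
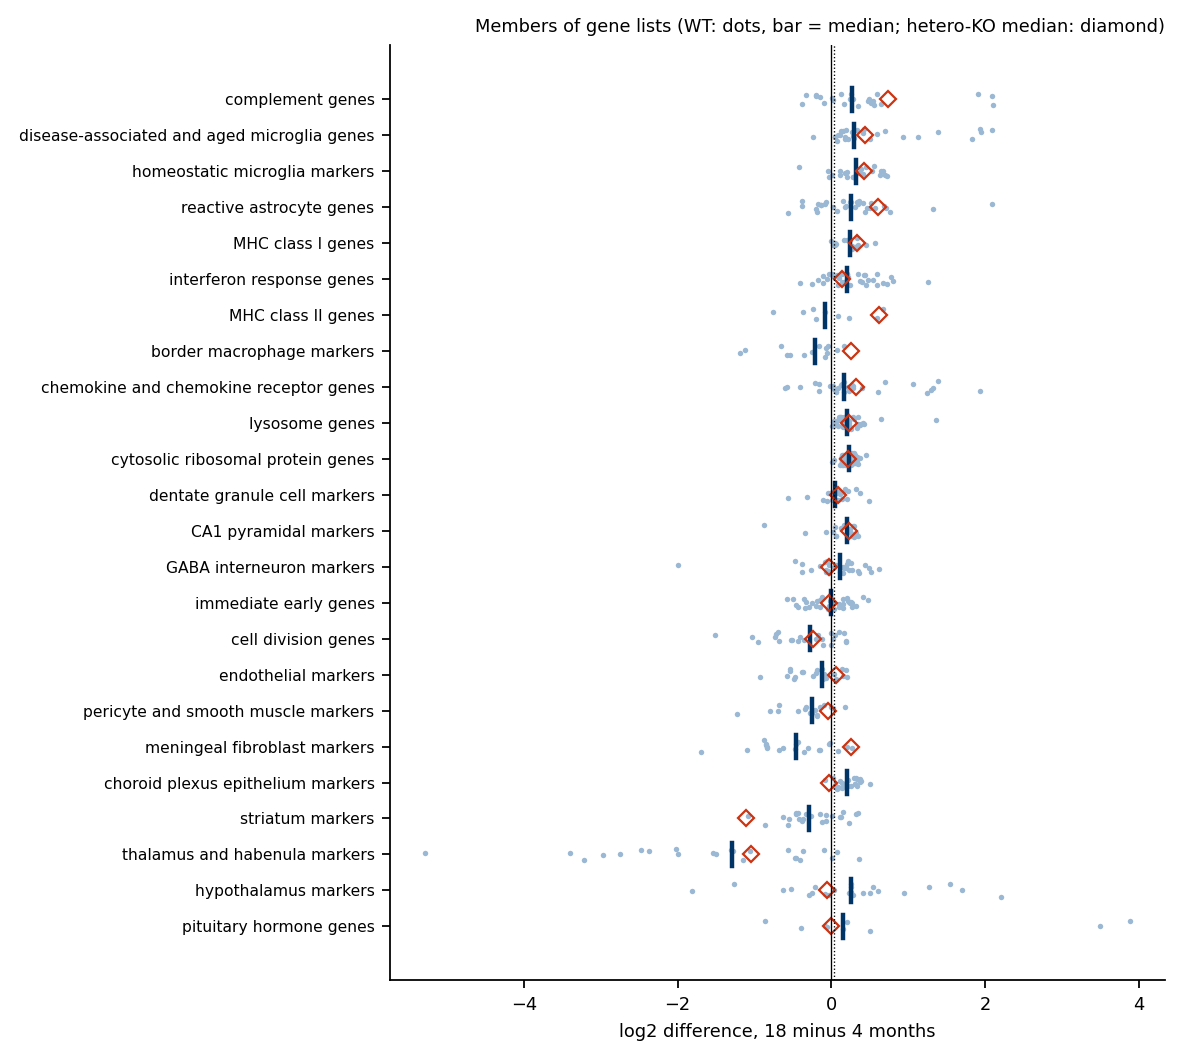
Each blue dot is the log2 difference, 18 minus 4 months, of a gene of the named list in WT; dark bars are the list's WT median, red diamonds its hetero-KO median, and the dotted line the WT median of all genes (0.04). Thalamus and habenula markers lie lowest (−1.30), meningeal, border macrophage and class II medians are below 0 in WT and above 0 in hetero-KO, and on the spike-in scale every WT dot moves by −0.32, which takes the WT medians of complement, microglia and lysosome genes below 0.

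Genes of the thalamus and habenula were lower at 18 months. Of 24 such markers measured on both WT arrays, 21 were lower at 18 months and 15 of these at least 2-fold lower (0.839% over all genes), with a median of −1.30 (−1.62 on the spike-in scale). Shox2, a homeobox factor of thalamic neurons, had a level of 1.34 at 4 months and 0.0345 at 18 months, 38.9-fold lower (chr3:66777191-66777250, mm9, minus strand). Tcf7l2, the Wnt effector that defines thalamic and habenular neurons, had 3.13 and 0.606 (−2.37), and its other 3 probes lay between −2.28 and −0.60. Tnnt1, a slow muscle troponin expressed in thalamus, had 5.44 and 0.696 (−2.97, second probe −3.20), and Slc17a6, the vesicular glutamate transporter of subcortical neurons, 1.95 and 0.479. Synpo2 (−3.22) and Vipr2 (−3.40) were seen by 1 probe each, with the second probe at 0.28 and −0.11. Gbx2, a thalamic homeobox factor, was measured at 4 months alone, with a level of 0.0738. The 3 members not lower were Calb2, Pou4f1 and Ptpn3.

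Of the 12 genes with the largest lower differences in WT, Shox2, Synpo2, Tnnt1, Nexn, Tcf7l2, Slc17a6 and Tac2 are members of that list. The others were Ramp3, a partner of calcitonin family receptors (6.39 and 1.26, second probe −2.40), Rgs16, which shortens G protein signals (3.95 and 0.802), Slitrk6, Epha8, a receptor of ephrins (0.721 and 0.180), and Rab37. In the hetero-KO pair 11 of the 12 had differences of −3.81 to −1.37, and Tac2 of −0.06. The summed level of the thalamus and habenula list was 79.3 and 42.8 in WT and 67.9 and 41.8 in the hetero-KO. Both 4-month arrays thus lay above both 18-month arrays. The part of tissue from outside the hippocampus in these differences was not tested.

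Other neuronal groups also held genes that differed, Slc17a6 of the thalamus and habenula list among them. Among synaptic vesicle genes, 4 of 35 were at least 2-fold lower in WT (0.839% over all genes), median 0.03 (−0.29 on the spike-in scale): Slc17a6, Unc13c (0.744 and 0.196, second probe −2.17), Rims3 (9.32 and 3.94) and Slc17a8 (0.413 and 0.176), while Syt1, the main calcium sensor of release, had 40.5 and 51.2. Syt10, another synaptotagmin, was higher, with 0.204 and 0.858 (2.07), but by 0.23 with its second probe. Markers of brainstem monoamine and cholinergic neurons were split, with 7 of 12 higher and 5 lower, median 0.02 (−0.30 on the spike-in scale). At least 2-fold lower (0.839% over all genes) were 2 of them. Slc5a7, the choline transporter, had 0.126 and 0.0277 (second probe −2.40), and Slc18a3, which loads acetylcholine into vesicles, 0.110 and 0.0410. Ddc, which makes dopamine and serotonin from their precursors, had a difference of 0.46, and Slc6a3, the dopamine transporter, of 0.72. The difference of Slc5a7 was −2.67 in the hetero-KO pair.

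**Figure D3:**
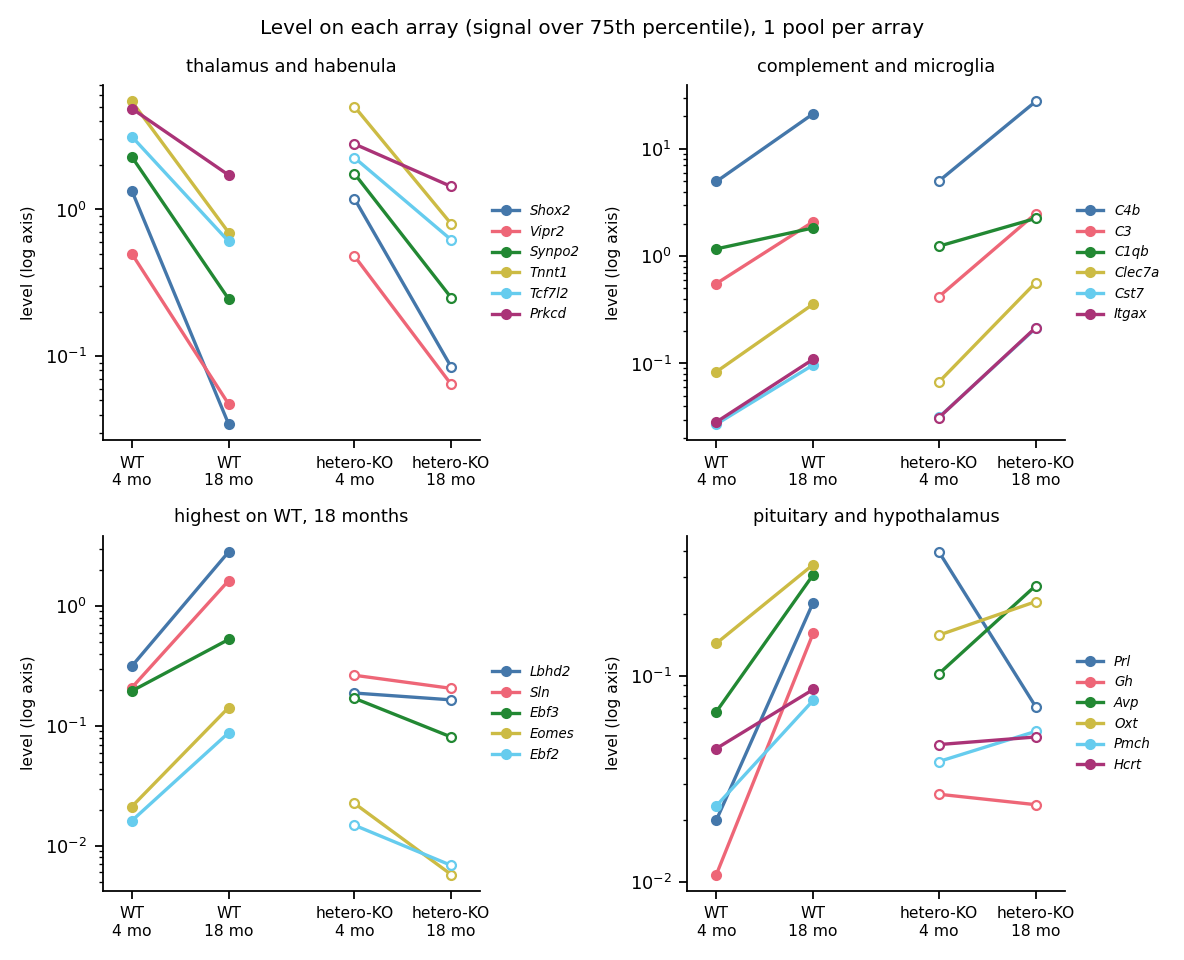
Level (signal over the array's 75th percentile, log axis) of selected genes on each of the 4 arrays, filled for WT and open for hetero-KO; each point is 1 pooled array, and Eomes and Ebf2 were not well above background on the hetero-KO array at 18 months. Thalamic genes are lower and complement and microglia genes higher on both 18-month arrays, whereas Lbhd2, Sln and Gh are high on the WT array at 18 months alone.

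Markers of the hippocampal neurons themselves differed little. Dentate granule cell markers had a median of 0.05 (−0.27 on the spike-in scale) over 24 genes, none at least 1.5-fold apart by the probe used. C1ql2, a synapse organizer of mossy fibres, had 0.518 and 0.524. Ntng1 differed by −0.56 with the probe used and by −0.94 to −0.79 with its other 4 probes. CA1 markers were higher in 15 of 18 (57.8% over all genes), median 0.20 (−0.12 on the spike-in scale, 0.104 with quantile normalization). Dcn, which fibroblasts also express, had 8.07 and 4.40. CA3 markers had a median of 0.02 with 12 of 21 higher, and Coch, at 0.328 and 0.146, was the 1 of them past 2-fold. Among interneuron markers, 18 of 31 were higher, median 0.11. Pvalb, the calcium buffer of fast-spiking cells, had 7.0 and 5.05 (−0.47), while Sst had 28.5 and 33.9 and the Dlx1 factor 0.271 and 0.417. The median was 0.02 over 24 glutamate receptor genes, −0.07 over 17 GABA receptor genes and −0.04 over 38 potassium channel genes. No member of these 3 groups was at least 1.5-fold apart by the probe used. Another probe gave −1.65 for Gria3, against −0.15 by the probe used, and −0.64 for Gria4, against −0.41. Immediate early genes had a median of −0.01, with 18 higher and 19 lower; Fos had 1.90 and 1.28, Arc 15.3 and 16.9.

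Of 24 cell division genes measured, 18 were lower (42.2% over all genes), 7 of them at least 1.5-fold (2.77%) and 2 at least 2-fold (0.839%), median −0.28 (−0.60 on the spike-in scale). The median was −0.00406 among those with a level of at least 0.1 on both arrays, and −0.063 with normexp background correction. Top2a, the topoisomerase of dividing cells, had 0.0528 and 0.0185 (−1.51), Ube2c, which drives exit from mitosis, 0.0566 and 0.0276, and Mki67, the proliferation antigen, 0.139 and 0.0861. The licensing genes Mcm2, Mcm3, Mcm5 and Mcm6 were not lower, with differences of 0.04 to 0.19. The hetero-KO pair had −1.53 for Top2a and −0.65 for Mki67. Of the immature neuron genes, Dcx, the microtubule protein of migrating neuroblasts, had 0.281 and 0.202 (−0.47). Its other 3 probes ranged from −0.41 to 0.41, with 2 of them lower. The list's median was −0.02 over 26 genes, with 12 higher and 14 lower (57.8% and 42.2% over all genes). At least 1.5-fold higher were 2 (2.52% over all genes), Eomes (2.74) and Igfbpl1 (0.69). None was at least 1.5-fold lower (2.77%).

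The oligodendrocyte lineage showed few large differences. Myelin genes had a median of 0.15 (−0.18 on the spike-in scale, 0.0434 with quantile normalization), 16 of 26 higher, with Mbp at 13.6 and 14.7. Klk6, a secreted protease of oligodendrocytes, was the 1 gene past 2-fold, at 0.195 and 0.521 (1.42), and the hetero-KO pair gave 1.21. Among precursor markers Gpr17, the receptor of cells committed to differentiate, had 6.03 and 3.89 (−0.63), while Pdgfra had 1.37 and 1.57. Tcf7l2, also a gene of newly formed oligodendrocytes, is the list's 1 member past 2-fold.

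Meningeal and vascular genes were mostly lower in WT. Of 21 meningeal fibroblast markers, 18 were lower (42.2% over all genes), 9 at least 1.5-fold (2.77%) and 2 at least 2-fold (0.839%). The median was −0.46 (−0.79 on the spike-in scale). Col3a1 had 0.190 and 0.0585 (−1.70), Col1a1 0.483 and 0.226 (−1.10, with 1 of its other 3 probes at 0.26), Slc6a13, a GABA and taurine transporter, 1.03 and 0.571, and Gjb2 1.46 and 0.816. The summed level of the list was 37.3 and 30.1 in WT, and 30.99 and 33.9 in the hetero-KO. There 16 of 21 were higher (60% over all hetero-KO genes). In WT the collagens did not all share the lower direction: Col6a3 had 0.134 and 0.469 (1.80, second probe 0.79). Endothelial markers were lower in 16 of 23 (42.2% over all genes), 1 of them at least 1.5-fold (2.77%), median −0.13. Their summed level was 62.7 and 61.5. Pecam1, the junctional adhesion molecule, had 0.289 and 0.151 and Cldn5, the tight junction claudin, 3.14 and 2.17. Pericyte and smooth muscle markers were lower in 15 of 17 (42.2% over all genes), median −0.25, with Des at 0.0280 and 0.0120. On the spike-in scale both vascular medians in WT were lower still, at −0.45 and −0.57. In the hetero-KO pair the endothelial median was 0.06, with 15 of 23 higher (60% over all its genes). The pericyte and smooth muscle median there was −0.05, with 11 of 17 lower (40%).

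Genes of the choroid plexus were slightly higher in WT. Of 27 markers 26 were higher (57.8% over all genes), none by 1.5-fold, median 0.21 (−0.12 on the spike-in scale). Ttr, the thyroxine carrier made in the choroid plexus, had 73.8 and 88.0. The summed level was 201 and 239 in WT and 164 and 182 in the hetero-KO, where 11 of 27 were higher (60% over all its genes).

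Some of the highest genes at 18 months were high on the WT array alone. Lbhd2, a gene of olfactory bulb output neurons, had 0.315 at 4 months and 2.83 at 18 months (chr12:112650200-112650259, mm9, plus strand), against 0.188 and 0.165 in the hetero-KO. Sln, sarcolipin, a small inhibitor of the muscle calcium pump, had 0.209 and 1.63 (chr9:53701574-53701633, plus strand), against 0.264 and 0.206. Eomes, a T-box factor of bulb output neurons and progenitors, had 0.0213 and 0.142 (2.74), Ebf2 0.0162 and 0.0878 (2.44) and Ebf3 0.196 and 0.526 (1.43). Each of these 5 was highest on the WT array at 18 months and had 1 probe. Of 22 bulb markers, 16 were higher and 3 at least 2-fold (0.772% over all genes), median 0.25 (−0.07 on the spike-in scale, 0.0774 with quantile normalization). The 3 were Lbhd2, Eomes and Sp8 (0.142 and 0.307). Others did not share the direction, Th having 0.370 and 0.377 and Lhx5 0.0758 and 0.0406, and Tbx21, which marks mitral cells, was near background at 0.0155 and 0.0214.

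Some hormone genes of pituitary and hypothalamus were higher at 18 months as well, not all of them in WT alone. Gh, growth hormone, had 0.0109 and 0.161 (3.88) and Prl, prolactin, 0.0200 and 0.226 (3.50). Cga, the shared chain of pituitary glycoprotein hormones, was measured at 18 months alone, at least 14.05-fold higher, whereas Pou1f1, the factor that specifies the cells that make both hormones, had 0.0143 and 0.0138. In the hetero-KO pair Prl had 0.398 and 0.0709, so that the order of the ages was the reverse, and Gh 0.0267 and 0.0238. The hypothalamic peptides Avp (0.0671 and 0.308), Oxt (0.144 and 0.345), Pmch (0.0235 and 0.0760) and Hcrt (0.0445 and 0.0859) were higher at 18 months in WT. Trh (0.405 and 0.115) and the factor Six3 (0.403 and 0.168) were lower. The hetero-KO pair shared the direction for Avp (0.102 and 0.273), Oxt (0.157 and 0.229), Pmch (0.0385 and 0.0538) and Trh (0.520 and 0.0530). The summed level of the 13 pituitary genes was 0.832 and 1.42 in WT, and 1.24 and 1.05 in the hetero-KO. Whether such tissue entered the pools was not tested.

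Striatal markers were lower in 17 of 24 in WT, median −0.30 (−0.62 on the spike-in scale), with 1 past 2-fold, Ebf1. The median was −0.0639 with normexp background correction and −0.075 with a level of at least 0.1 on both arrays. Drd1, the dopamine receptor of the direct pathway, had 0.450 and 0.327. In the hetero-KO pair all 23 measured were lower (40% over all its genes), median −1.12. The summed level was 56.97 and 59.7 in WT, and 98.2 and 60.8 in the hetero-KO, so that the hetero-KO array at 4 months stood above the other 3.

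Genes of protein synthesis and respiration were higher by small, even amounts. All 75 cytosolic ribosomal protein genes were higher, median 0.23 with a maximum of 0.45 (median −0.09 on the spike-in scale), and 65 of 69 nuclear genes of oxidative phosphorylation, median 0.17 (−0.15 on the spike-in scale). With quantile normalization these medians were 0.0565 and 0.0131. None was at least 1.5-fold apart. These are bright genes, with median 4-month levels of 30.3 and 23.9, and the brightest decile of all genes had a median of 0.14. The hetero-KO medians were 0.21 and 0.13. Glucocorticoid-induced genes were higher in 18 of 24, median 0.22 (−0.10 on the spike-in scale), with Plin4, a lipid droplet coat protein, at 0.369 and 0.946, Hif3a at 0.268 and 0.546 (second probe 0.74), and the kinase Sgk1 at 9.62 and 16.1. Dlk1, an imprinted Notch-like ligand, had 0.246 and 0.712 (1.54, second probe 1.26).

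Genes well above background on 1 WT array alone gave bounds. The largest at 18 months, beside Cga and Ubd, were those of Corin, a serine protease (at least 12.2-fold), the phospholipase-like Pla2g12b (10.7-fold) and the odorant receptor Olfr1461 (8.42-fold). At 4 months, beside Xist, they were those of Adamts19 (13.1-fold), Il1f9 (12.2-fold), Sbk2 (12.1-fold) and Gpr151, a receptor of habenular neurons (11.495-fold). The bright level of each was under 0.1, Xist apart. Il1f9, Sbk2, Corin, Olfr1461 and Ubd were not well above background on either hetero-KO array.

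The hetero-KO pair, on arrays of its own, offers the one set of values beside WT for the same span of ages. Of 160 genes at least 2-fold higher in WT and measured on all 4 arrays, 118 (73.8%) were higher there too, where 59.9% of all 27355 genes were, and 62 (38.8%) at least 2-fold, where 1.03% were. Of 208 at least 2-fold lower in WT, 165 (79.3%) were lower, where 40.1% were, and 70 (33.7%) at least 2-fold, where 1.09% were. The correlation of the WT and hetero-KO differences across genes was 0.44. Genes are not independent replicates, and both pairs share the slide, the array rows and the order of age. The sex makeup of the pools also shifted in the same direction in both pairs. Of the hetero-KO arrays, only the 4-month one had the Xist probe well above background, with a level of 0.229. The call of the probe named XIST is not given for them. Eif2s3y, Uty, Ddx3y and Kdm5d passed that call on the 18-month hetero-KO array alone, Eif2s3y with 1.32. The part of sex in what the pairs share was not tested.

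**Figure D4:**
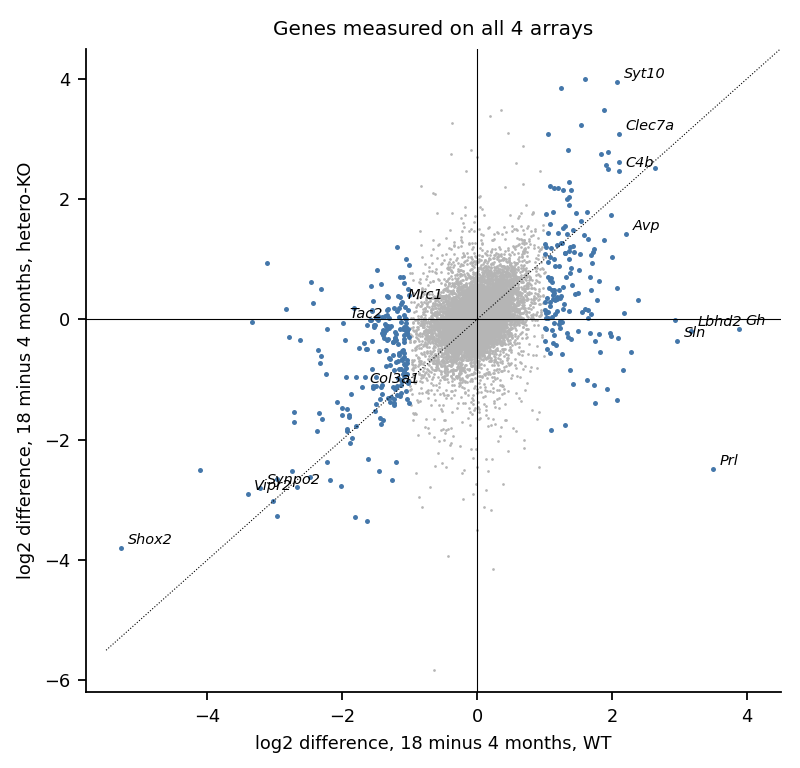
Log2 difference, 18 minus 4 months, in hetero-KO (vertical) against WT (horizontal) for genes measured on all 4 arrays; blue points are at least 2-fold apart in WT, the dotted line marks equal differences, and the 2 genes with the lowest WT and the highest hetero-KO difference lie outside the axes. Shox2, Synpo2, C4b and Clec7a lie in the corners of shared direction, Lbhd2, Sln and Gh near 0 in hetero-KO, and Prl in the corner of opposite direction.

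Differences that set the pairs apart were found in both directions. At least 2-fold apart in opposite directions were 11 genes, among them Prl, Ebf3, Ano2 and Ctxn3. Among the genes most lower in WT relative to the hetero-KO, Tac2 had 2.18 and 0.547 in WT and 0.888 and 0.853 in the hetero-KO, and Spaca4 0.794 and 0.272 against 0.723 and 0.892. Slc6a13, Aldh1a2 and Wfikkn2 were lower in WT, by −0.85, −0.63 and −0.75, and higher in the hetero-KO, by 0.61, 0.78 and 0.72. The X-linked Eif2s3x had 0.640 and 1.03 against 0.134 and 0.987 by the probe used, and −0.23 by its second probe in WT. Among those most higher in WT, Ecel1, an endopeptidase, had 0.578 and 0.731 against 1.17 and 0.305, Rgs9, a striatal regulator of G proteins, 1.79 and 1.21 against 5.82 and 1.44, and Ccl21a 1.75 and 1.79 against 2.0 and 0.711. For Wdfy1 the levels were 2.20 and 2.60 against 2.58 and 1.01. No replicate array exists to set these differences against, and none was tested.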

How the data were processed

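Spot intensity was deposited as linear scanner output, made per the file headers with Agilent Feature Extraction 11.5.1.1 (protocol GE1_1105_Oct12), which subtracted background, removed spatial trends and put surrogate values on dim spots, in build mm9. A value table that the authors deposited beside them holds a linear ratio near the signal over the 75th percentile; its centring and source are unstated, its column medians were 0.107 (WT, 4 months), 0.0998 (WT, 18 months), 0.103 and 0.0987 (hetero-KO), and its WT column at 18 months matches no scanner file (r of log2 values 0.978 with its own array, 0.982 at most), so that it served as an alternative only. The 4-month columns had r = 1 with their arrays.

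Levels were the processed signal over each array's 75th percentile of 59305 non-control spots. Spots marked as outliers were left out, spots of each of the 56605 probes were averaged, and a probe was taken as measured where 50% or more of them were well above background. The probe with the highest mean WT level stood for a gene. Symbols came from RefSeq accessions for 33881 probes (GRCm38.p6 table, names only, 1699 symbols changed) and from the file for 22724. A bound divides the bright level by that of the dim probe or, where higher, by the lowest level called well above background (0.00573 at 4 and 0.00755 at 18 months). Positions of probes within exons or UTRs are not given here.

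Gene lists (56) and members were chosen with earlier results of these data known. Named genes were the 12 with the largest differences in each direction with a level of at least 0.5 on the brighter array, the 5 largest bounds, the 8 largest differences between the pairs, the first 3 and 3 largest of each list, Zbtb18 and the sex-linked genes; any other gene was chosen after its values were seen, and some genes are not reported here. With 1 array per group no test was made. The procedure was checked on simulated data. Alternatives changed scaling, background (normexp in limma 3.58.1, R 4.3.3, offset 50), filter, probe choice and source. Python 3.11.15, numpy 2.4.6 and pandas 2.3.3 were used.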

Additional observations from a re-analysis of the deposited data

Results flagged for a closer look

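The age difference went in opposite directions in WT and in the hetero-KO for the named genes Ebf3 and Prl and for 2 groups of markers. With 1 array in each of the 4 groups, none of these differences was tested. Ebf3 had a log2 difference of 1.43 in WT and −1.07 in the hetero-KO. Prl had 3.50 and −2.49. The median of the border macrophage markers was −0.208 in WT and 0.258 in the hetero-KO, and that of the meningeal fibroblast markers −0.462 and 0.258. On the spike-in scale the WT medians of both marker groups were further below 0, at −0.53 and −0.79.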

How the results depend on the processing

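Against 218 genes higher and 237 lower by 2-fold or more, the counts were 110 and 589 when scaled on the spiked-in RNA, 64 and 74 with normexp background correction, 1145 and 1179 with no filter on dim probes, 40 and 57 among genes with a level of at least 0.1 on both arrays, and 985 and 1513 in the authors' deposited table. Scaling on the median, on the 75th percentile without outlier spots or over detected probes, quantile normalization, averaging all probes of a gene, and leaving out X and Y genes or neighbouring tissue markers (both added after seeing the data) kept the counts between 201 and 240 higher and between 214 and 243 lower. Of the 237 genes at least 2-fold lower, 116 were so in the authors' table, and of the 218 higher 22. Of the 20 list medians of at least 0.2 in size, 13 changed sign on the spike-in scale, those of complement genes (−0.0589), homeostatic microglia markers (−0.0028), disease-associated and aged microglia genes (−0.0327), reactive astrocyte genes (−0.0736), MHC class I genes (−0.0835), lymphocyte and plasma cell genes (−0.0848), lysosome genes (−0.12), choroid plexus epithelium markers (−0.116), CA1 pyramidal markers (−0.12), olfactory bulb mitral, tufted and periglomerular cell markers (−0.0716), hypothalamus markers (−0.072), glucocorticoid-induced genes (−0.104) and cytosolic ribosomal protein genes (−0.0908). With a level of at least 0.1, the median of the hypothalamus markers was −0.000737. In the authors' table, whose WT column at 18 months matches no scanner file, 15 of the 20 changed sign, those of complement genes (−0.186), homeostatic microglia markers (−0.0548), disease-associated and aged microglia genes (−0.106), reactive astrocyte genes (−0.307), MHC class I genes (−0.0878), lymphocyte and plasma cell genes (−0.00411), lysosome genes (−0.0791), choroid plexus epithelium markers (−3.42), CA1 pyramidal markers (−1.34), olfactory bulb mitral, tufted and periglomerular cell markers (−0.137), striatum markers (0.952), hypothalamus markers (−0.262), glucocorticoid-induced genes (−0.0599), cytosolic ribosomal protein genes (−0.0635) and Y-linked genes and Xist (−0.145). Of 61 named genes at least 2-fold apart, 30 changed sign there: Lbhd2 (−1.13), Sln (−1.11), C4a (−0.931), C4b (−0.751), C3 (−0.376), Dlk1 (−1.34), Ebf3 (−2.03), Grn (−0.0203), Plin4 (−0.728), Nexn (0.146), Epha8 (0.293), Tac2 (0.105), Ifi27l2a (−0.699), Ccl5 (−0.249), Ccl4 (−0.00756), Eomes (−2.32), Col6a3 (−0.549), Coch (1.68), Avp (−1.03), Oxt (−0.257), Pmch (−0.0816), Prl (−1.02), Gh (−0.632), Slc5a7 (0.339), Slc18a3 (0.34), Rora (0.0126), Unc13c (0.412), Uty (−0.0415), Ddx3y (−0.115) and Kdm5d (−0.338). The cause was not tested. Apart from these, none of the 20 medians and of the 61 genes changed sign under any alternative for which they were computed. Of the 36 smaller medians, 26 changed sign on the spike-in scale, 22 in the authors' table and 13 under at least 1 of the others. Of 246 named genes less than 2-fold apart, 80, 135 and 28 did. No paired analysis was possible because each group holds 1 array, and for the same reason no replicate could be left out. Dim signal limits the rest: most genes past 2-fold had a level below 0.1 on an array.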
